A study of Mus musculus with 29 samples.

Results

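The hearts described here came from 10 tumour-bearing and 4 tumour-free BALB/c mice that all carried the same control vector, 14 of the 29 hearts in the series. They were chosen by group label alone, without use of any measured value. All mice were labelled wildtype and had received, 10 days before the tumour or saline injection, an adeno-associated virus in which the Tbg promoter, active in hepatocytes, drives GFP. The 10 C26_GFP mice then received C26 colon carcinoma cells under the skin, and the 4 PBS_GFP mice received PBS. The other 15 hearts, 10 C26_REVERBa and 5 PBS_REVERBa, came from mice whose vector carried REV-ERBα instead, and they enter here only through the shared estimate of spread and 1 closing comparison. Each library was total RNA from 1 heart, each animal having a separate number, and the sources used here do not give the sex, the age or the hour of collection.

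The C26 tumour is a mouse model of cancer cachexia, in which a growing tumour elsewhere in the body leads to wasting of muscle and fat. The heart is reached through the circulation by cytokines, acute phase proteins and hormones, and cardiac muscle, vessels and fibroblasts each carry their own receptors for these signals. Cardiac muscle cells are packed with mitochondria, whose proteins are mostly encoded in the nucleus, made in the cytosol and imported, while capillaries, fibroblasts and resident immune cells make up most of the other cells. A whole heart contains RNA of all of them, so a lower level of a gene in these data may mean fewer cells of a type or less RNA per cell, which cannot be told apart.

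The libraries held 5684452 to 16853646 counts in C26_GFP and 3467940 to 14740569 counts in PBS_GFP hearts. Above 10000000 counts were C26_GFP replicates 4, 5 and 6 and PBS_GFP replicates 1 and 2. The mean level of atrial markers passed 5 log2 CPM (counts scaled to library size) in C26_GFP replicates 3, 5 and 9 and in PBS_GFP replicate 2. The mean level of 6 liver genes was 2.48 and 1.57 log2 CPM in C26_GFP replicates 5 and 6, between -0.16 and 0.83 in the other C26_GFP hearts, 4.01 in PBS_GFP replicate 2 and between -0.86 and -0.49 in the other PBS_GFP hearts. Of the defining genes of ventricular muscle, all 12 had counts, with a summed level of 17159 to 23048 CPM in C26_GFP and 18173 to 19843 CPM in PBS_GFP hearts.

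The tumour changed many genes by small amounts. Of 12928 genes tested, 3642 (28.2%) passed an adjusted p under 0.05 in edgeR's quasi-likelihood test, 1836 higher (14.2%) and 1806 lower (14%) in C26_GFP hearts. The median size of a called change was 0.42 on the log2 scale, and 2517 of the called genes (69.1%) changed by less than 1.5-fold, while 269 rose and 186 fell by more than 2-fold. In 1547 genes (12.0%) the hearts of the 2 groups did not overlap in CPM, 731 of them higher and 816 lower in C26_GFP hearts, and 1510 of those genes also passed the test. For 2381 genes (18.4%) the 95% interval of the fold change lay within 1.2-fold either way. The called share was 41.6% among the most abundant genes (top quartile) and 15.4% among the least abundant (bottom quartile), and it lay between 23.2% and 31.4% on each of 20 chromosomes. Without the 5 libraries above 10000000 counts, which leaves 7 C26_GFP and 2 PBS_GFP hearts, 1975 genes passed, 985 higher and 990 lower. Counts within gene groups are therefore given below also without those libraries, as "without the deep libraries", and without single hearts, where either count of a group differs by more than 1.5 times.

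Genes of innate immune signalling and of complement were among the clearest rises. C4b, a complement component (NM_009780, chr17:34728381-34743897, minus strand, mm10), had a lowest, median and highest level of 25.1, 44.1 and 50.8 CPM in C26_GFP hearts, against 3.05, 10.0, 4.30 and 3.49 CPM in the 4 PBS_GFP hearts. Every C26_GFP heart lay above every PBS_GFP heart, and the log2 fold change with its standard error was 2.90 ± 0.37 (edgeR adjusted p = 2.41e-06). Serping1, which inhibits the first complement component, had 173, 224 and 246 CPM in C26_GFP hearts, against 102, 127, 98.1 and 96.5 CPM in PBS_GFP hearts, without overlap (1.05 ± 0.10, adjusted p = 4.44e-08). Lbp, a binding protein for bacterial lipopolysaccharide, rose by 2.18 ± 0.36 (adjusted p = 6.15e-05), and by 3.48 without the deep libraries. Srpx, which encodes a sushi-repeat protein, had 20.3, 33.9 and 40.4 CPM in C26_GFP hearts, against 2.56, 6.53, 5.45 and 3.20 CPM in PBS_GFP hearts, again without overlap (2.88 ± 0.35, adjusted p = 1.35e-06).

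Receptors and brakes of cytokine signalling were among the named rises. Socs3, the feedback inhibitor that STAT3 induces (NM_007707, chr11:117966087-117969366, minus strand), had 38.8, 58.7 and 80.3 CPM in C26_GFP hearts, against 13.5, 13.8, 13.2 and 13.4 CPM in PBS_GFP hearts. The PBS_GFP hearts were nearly equal while the C26_GFP hearts spread over a wide range above them (2.10 ± 0.24, adjusted p = 5.06e-07). Irak3, a kinase-like protein that restrains toll-like receptor signalling (NM_028679, chr10:120141654-120201537, minus strand), had 17.8, 21.8 and 26.6 CPM in C26_GFP hearts, against 9.29, 10.7, 8.03 and 10.5 CPM in PBS_GFP hearts. It had one of the smallest p-values of all rises with a change of 1.19 ± 0.10 (adjusted p = 1.43e-08). Tnfrsf1a, the main receptor of tumour necrosis factor (NM_011609, chr6:125349723-125362483, plus strand), had 84.1, 97.1 and 110 CPM in C26_GFP hearts, against 45.2, 60.7, 50.8 and 56.4 CPM in PBS_GFP hearts, without overlap (0.85 ± 0.09, adjusted p = 1.9e-07). The shared receptor chain Csf2rb rose by 2.09 ± 0.32 and its near-identical neighbour Csf2rb2 by 2.22 ± 0.32 (adjusted p = 2.57e-05 and 1.3e-05), and reads of this pair may be split between them by the counting. Axl, a receptor kinase that binds Gas6, rose by 0.62 ± 0.10 (adjusted p = 3.75e-05), and its ligand Gas6 rose by 0.60 ± 0.12 (adjusted p = 0.000519).

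Other rises with no overlap between the groups were Cxcl14, Ly6a and Grrp1. Cxcl14, a chemokine of fibroblasts (NM_019568, chr13:56288643-56296551, minus strand), had 137, 167 and 250 CPM in C26_GFP hearts, against 29.4, 46.9, 40.2 and 54.1 CPM in PBS_GFP hearts (2.10 ± 0.30, adjusted p = 1.15e-05). Ly6a, a cell surface protein known as Sca-1 (NM_010738, chr15:74994877-74998031, minus strand), had 110, 131 and 145 CPM in C26_GFP hearts, against 67.3, 59.5, 70.9 and 69.5 CPM in PBS_GFP hearts (0.94 ± 0.08, adjusted p = 1.06e-08), although near-identical Ly6 genes make its level uncertain. Grrp1, a glycine- and arginine-rich protein (NM_001099296, chr4:134251110-134254106, minus strand), had 55.7, 72.3 and 105 CPM in C26_GFP hearts, against 18.6, 18.1, 19.2 and 19.5 CPM in PBS_GFP hearts (2.05 ± 0.20, adjusted p = 5.63e-08). Larger rises with a wider spread were those of Ttyh1, which had 6.77 to 40.9 CPM in C26_GFP and 1.43 to 3.12 CPM in PBS_GFP hearts, the proteoglycan Spock2, with 25 to 134 CPM in C26_GFP and 6.72 to 20.5 CPM in PBS_GFP hearts, and the transcription factor Tcf23, with 13.1 to 84.0 CPM in C26_GFP and 6.40 to 7.75 CPM in PBS_GFP hearts. Their log2 changes were 2.89 ± 0.50, 2.62 ± 0.48 and 2.77 ± 0.44 (adjusted p = 0.000103, 0.000193 and 3.55e-05). The transporter gene Slc10a6 rose by 2.46 ± 0.45 (adjusted p = 0.000182) and Tmem176b by 1.19 ± 0.12 (adjusted p = 5.63e-08).

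**Figure D1:**
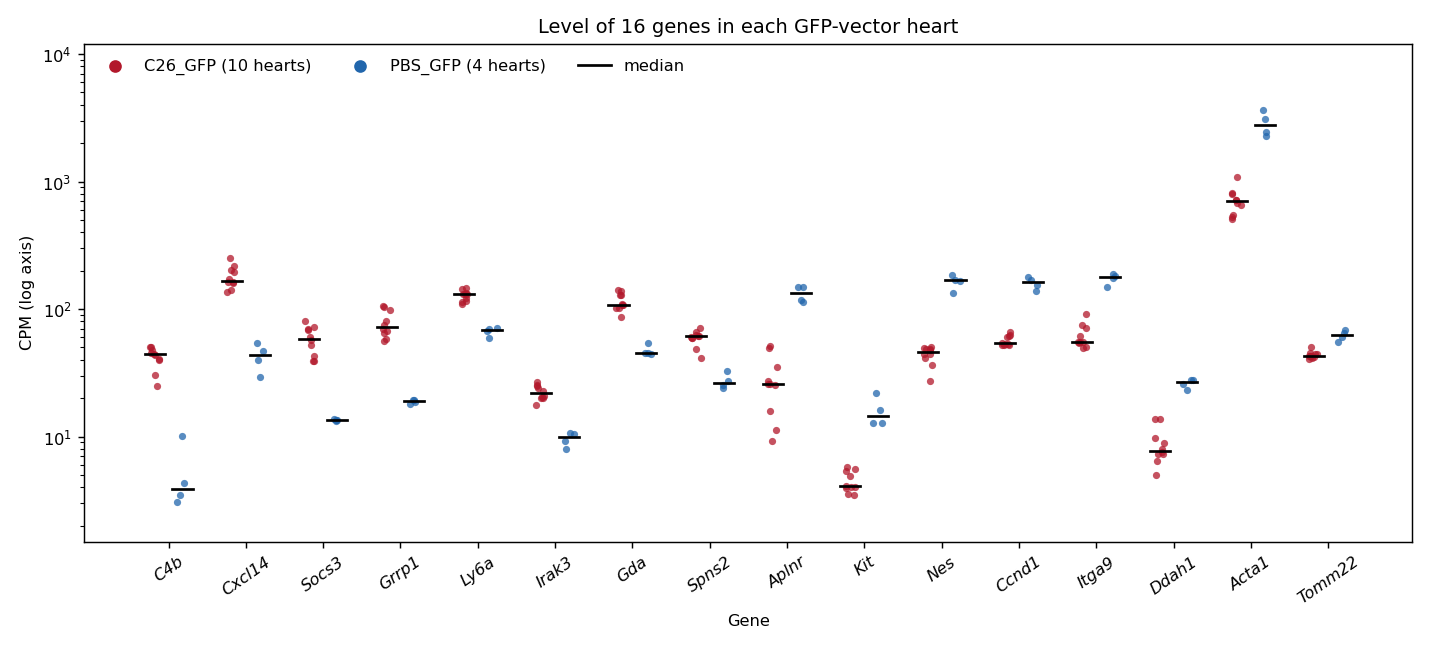
Level in CPM (log axis) of 16 genes in each heart, C26_GFP hearts in red on the left of each pair and PBS_GFP hearts in blue on the right, with the group median as a bar. The C26_GFP hearts lie wholly above the PBS_GFP hearts for the first 8 genes and wholly below them for the last 8, and the 4 Socs3 values of PBS_GFP hearts lie between 13.2 and 13.8 CPM.

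Socs3, Cxcl14 and Tnfrsf1a are shown with the 300 bases around their RefSeq start (GRCm38.p6, 250 before to 50 after, read 5′ to 3′ along the gene), because these windows hold the STAT-type motif TTCNNNGAA, printed in capitals. The Opa1 window is shown for a different motif, CGCATGCG, also in capitals, which is taken up with the mitochondrial genes. The windows lie at chr11:117969317-117969616 (Socs3, minus strand), chr13:56296502-56296801 (Cxcl14, minus strand), chr6:125349473-125349772 (Tnfrsf1a, plus strand) and chr16:29579084-29579383 (Opa1, plus strand).
Socs3: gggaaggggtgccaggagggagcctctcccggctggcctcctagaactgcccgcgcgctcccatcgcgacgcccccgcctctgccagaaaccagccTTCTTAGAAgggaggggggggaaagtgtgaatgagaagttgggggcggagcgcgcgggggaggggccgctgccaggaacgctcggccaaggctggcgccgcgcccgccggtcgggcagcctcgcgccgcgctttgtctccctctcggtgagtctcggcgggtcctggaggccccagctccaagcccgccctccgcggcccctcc
Cxcl14: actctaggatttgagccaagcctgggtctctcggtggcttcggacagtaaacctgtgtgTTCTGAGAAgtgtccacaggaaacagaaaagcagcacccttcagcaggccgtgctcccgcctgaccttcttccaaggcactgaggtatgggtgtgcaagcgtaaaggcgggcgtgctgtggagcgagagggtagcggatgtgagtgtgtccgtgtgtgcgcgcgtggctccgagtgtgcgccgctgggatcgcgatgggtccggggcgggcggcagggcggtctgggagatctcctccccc
Tnfrsf1a: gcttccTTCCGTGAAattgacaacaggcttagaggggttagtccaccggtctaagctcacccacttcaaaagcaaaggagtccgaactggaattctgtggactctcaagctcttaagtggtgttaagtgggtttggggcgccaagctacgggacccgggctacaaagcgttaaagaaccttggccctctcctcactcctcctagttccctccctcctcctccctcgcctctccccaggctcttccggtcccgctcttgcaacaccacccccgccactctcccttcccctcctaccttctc
Opa1: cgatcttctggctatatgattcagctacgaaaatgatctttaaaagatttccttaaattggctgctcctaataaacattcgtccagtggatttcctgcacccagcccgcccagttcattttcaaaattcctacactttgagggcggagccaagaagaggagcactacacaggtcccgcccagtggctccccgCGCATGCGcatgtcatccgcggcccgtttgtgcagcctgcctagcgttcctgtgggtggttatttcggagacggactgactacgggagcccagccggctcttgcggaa
The motif TTCNNNGAA equals its own reverse complement in its fixed bases, so 1 search covers both strands. It was found in 4 of 24 matched promoters (16.7%) of the rising genes named by size or by smallest p, namely Csf2rb2, Cxcl14, Socs3 and Tnfrsf1a, in none of 16 among the falling ones, and in 672 of all 9540 matched promoters (7.04%). Among all genes called higher the share was 7.86%, close to that of all promoters.

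Aplnr, Nes and Kit were among the genes that fell without overlap. Aplnr, the receptor for the peptide apelin on endothelial cells (NM_011784, chr2:85136360-85139923, plus strand), had 9.28, 25.8 and 51.6 CPM in C26_GFP hearts, against 150, 118, 150 and 114 CPM in PBS_GFP hearts. The highest C26_GFP heart was well below the lowest PBS_GFP heart (-2.24 ± 0.34, adjusted p = 2.2e-05). Nes, the intermediate filament nestin, found in young endothelium and in progenitor cells (NM_016701, chr3:87971093-87980451, plus strand), had 27.1, 46.2 and 50.0 CPM in C26_GFP hearts, against 133, 169, 166 and 184 CPM in PBS_GFP hearts (-1.88 ± 0.18, adjusted p = 4.41e-08). Kit, the receptor for stem cell factor (NM_001122733, chr5:75574987-75656721, plus strand), had 3.49, 4.07 and 5.80 CPM in C26_GFP hearts, against 16.1, 12.8, 22.1 and 12.8 CPM in PBS_GFP hearts, without overlap (-1.81 ± 0.17, adjusted p = 4.41e-08). The endothelial cadherin Pcdh12 changed by -1.74 ± 0.21 (adjusted p = 1.25e-06), the angiogenesis inhibitor Vash1 by -1.10 ± 0.13 (adjusted p = 1.25e-06) and Kdr, the main receptor of vascular endothelial growth factor, by -0.56 ± 0.12 (adjusted p = 0.0011).

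Guidance receptors of vessels and nerves moved both ways. Plxnd1, a semaphorin receptor of endothelium, had 96.7, 104 and 124 CPM in C26_GFP hearts, against 209, 193, 184 and 219 CPM in PBS_GFP hearts (-0.91 ± 0.13, adjusted p = 1.64e-05), and Nrp2, a coreceptor of semaphorins and growth factors, fell as well (-0.71 ± 0.10, adjusted p = 1.13e-05). Of 53 axon guidance ligands and receptors tested, 13 rose, 12 fell and 28 did not pass, with a median log2 change of 0.02, against a median of all tested genes of -2.85e-05. Among the members that rose were the ligands Sema6b, with 42.9 to 103 CPM in C26_GFP and 27.0 to 42.2 CPM in PBS_GFP hearts (1.15 ± 0.18), Sema3g, a semaphorin of arteries (1.02 ± 0.17), and netrin Ntn1 (0.62 ± 0.09), with adjusted p-values of 2.9e-05, 5.05e-05 and 1.3e-05. Integrins of adhesion also split, with 10 members of the focal adhesion group higher and 11 lower of 46, and 8 higher and 6 lower without the deep libraries. Without PBS_GFP replicate 4 that group had 9 higher and 7 lower. Itga9, an integrin chain that binds tenascin and osteopontin (NM_133721, chr9:118606709-118901003, plus strand), had 49.5, 55.3 and 91.2 CPM in C26_GFP hearts, against 188, 148, 183 and 176 CPM in PBS_GFP hearts (-1.48 ± 0.17, adjusted p = 7.73e-07). Itgb6, a chain of another integrin that activates latent TGF-beta, changed by -2.01 ± 0.35 (adjusted p = 0.000108), the laminin receptor chain Itga6 by -0.58 ± 0.10 (adjusted p = 0.000118) and the adhesion protein gene Tns1 by 0.62 ± 0.11 (adjusted p = 0.000101).

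Ccnd1, Mycn and Acta1 were among the genes with larger falls. Ccnd1, the cyclin that starts entry into the cell cycle (NM_007631, chr7:144929931-144939925, minus strand), had 51.9, 53.9 and 66.5 CPM in C26_GFP hearts, against 169, 139, 154 and 179 CPM in PBS_GFP hearts. The C26_GFP hearts lay in a narrow band (-1.49 ± 0.15, adjusted p = 5.34e-08). Mycn, a transcription factor of growing cells, had 1.09, 2.59 and 3.08 CPM in C26_GFP hearts, against 14.9, 17.8, 16.9 and 14.2 CPM in PBS_GFP hearts (-2.69 ± 0.28, adjusted p = 1.53e-07). Acta1, the skeletal actin that the heart also makes (NM_001272041, chr8:123891758-123894775, minus strand), had 512, 698 and 1089 CPM in C26_GFP hearts, against 3083, 2282, 2454 and 3657 CPM in PBS_GFP hearts (-2.02 ± 0.29, adjusted p = 1.32e-05). Casq1, the skeletal muscle calsequestrin that buffers stored calcium, changed by -1.72 ± 0.26 (adjusted p = 2.18e-05) and the smooth muscle actin Acta2 by -1.98 ± 0.41 (adjusted p = 0.000739). Of 16 skeletal muscle markers only 6 had enough counts to be tested, and 4 of them fell and none rose. Those 6 summed to 3195 to 4309 CPM in C26_GFP and 6075 to 7442 CPM in PBS_GFP hearts, with medians of 3633 and 6794 CPM. Acta1 alone had medians of 698 and 2768 CPM in the same order. Another marker, 1 in all, had no count in any of the 14 hearts, and the rest had too few. The part of skeletal muscle in these falls was not tested.

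Ddah1, which degrades an inhibitor of nitric oxide synthase (NM_026993, chr3:145758692-145894277, plus strand), had 5.03, 7.76 and 13.8 CPM in C26_GFP hearts, against 27.6, 23.0, 27.5 and 25.9 CPM in PBS_GFP hearts, without overlap (-1.55 ± 0.21, adjusted p = 7.7e-06). The hearts were as clearly apart for Sh3bgr, a muscle gene with 41.8 to 82.9 CPM in C26_GFP and 167 to 210 CPM in PBS_GFP hearts (-1.73 ± 0.19, adjusted p = 5.02e-07). The kinase anchor Akap5 changed by -2.53 ± 0.30, the potassium channel subunit Kcne1 by -1.93 ± 0.28, Klhdc8a by -1.96 ± 0.28 and Enho, which encodes the peptide adropin, by -1.08 ± 0.13 (adjusted p = 1.03e-06, 1.21e-05, 1.11e-05 and 8.26e-07). Fgf16, a growth factor of cardiac muscle, fell by 1.41 ± 0.29 (adjusted p = 0.000625), with 7.79 to 25.5 CPM in C26_GFP and 28.5 to 46.5 CPM in PBS_GFP hearts. Of 13 genes of the Hspa family of chaperones, 6 fell and none rose, with a median of -0.16. Hspa1b, the stress-induced member, had 2.42 to 6.95 CPM in C26_GFP and 17.2 to 29.2 CPM in PBS_GFP hearts (-2.21 ± 0.28, adjusted p = 2.41e-06), and its near-identical copy makes that level uncertain, while Hspa4l changed by -0.45 ± 0.09 (adjusted p = 0.000585).

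The next genes were among those with the largest gains or losses in absolute CPM, a ranking that favours abundant genes. Lpl, the lipase that frees fatty acids from circulating lipoproteins (NM_008509, chr8:68880555-68906932, plus strand), gained the most, with 11750 ± 1758 CPM in C26_GFP hearts (SD, n = 10) and 7349 ± 604 CPM in PBS_GFP hearts (SD, n = 4). Its hearts did not overlap, with 9731 to 14843 CPM in C26_GFP and 6753 to 8168 CPM in PBS_GFP hearts, and the log2 change was 0.68 ± 0.13 (edgeR adjusted p = 0.000253). Myh7, the slow myosin heavy chain, had 3007, 4428 and 7485 CPM in C26_GFP hearts, against 2388, 2230, 2212 and 2353 CPM in PBS_GFP hearts (1.15 ± 0.22, adjusted p = 0.000292), and Des, the desmin filament, rose by 0.55 ± 0.11 (adjusted p = 0.000507). Glul, which makes glutamine, rose by 0.90 ± 0.17, the elongation factor Eef2 by 0.55 ± 0.08 and Tacc2 by 1.26 ± 0.28 (adjusted p = 0.000225, 2.58e-05 and 0.00124), the last with overlapping groups.

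The giant spring protein titin, Ttn, had 7355, 9712 and 11596 CPM in C26_GFP hearts, against 12634, 13874, 14139 and 14743 CPM in PBS_GFP hearts (-0.50 ± 0.11, adjusted p = 0.00144). Mb, which stores oxygen as myoglobin, changed by -0.35 ± 0.09 (adjusted p = 0.0056), and Oxct1, the enzyme that lets the heart burn ketone bodies, had 762 to 1478 CPM in C26_GFP and 1778 to 2025 CPM in PBS_GFP hearts (-0.84 ± 0.15, adjusted p = 0.000132). Srl, the calcium-binding sarcalumenin of the sarcoplasmic reticulum, changed by -0.79 ± 0.11 (adjusted p = 1.07e-05). Atp2a2, the calcium pump of that membrane, had 11330 to 18518 CPM in C26_GFP and 17617 to 19256 CPM in PBS_GFP hearts, with overlap (-0.37 ± 0.12, adjusted p = 0.0208). Its call was lost without PBS_GFP replicate 1 (-0.34, adjusted p = 0.0677) and without the deep libraries (adjusted p = 0.103). Of 12 ventricular muscle markers 5 fell and 1 rose, with a median of -0.33, and 3 fell without PBS_GFP replicate 1. Among the falls were the myosin light chain Myl3 (-0.46 ± 0.10, adjusted p = 0.00092) and the potassium channel subunit Kcnip2 (-0.43 ± 0.11, adjusted p = 0.00519), whose call was lost without the deep libraries (-0.39, adjusted p = 0.102).

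Among nuclear genes for mitochondrial proteins, falls outnumbered rises in each of the groups counted here, although many members did not pass. Of 48 tested genes of the large mitochondrial ribosomal subunit (Mrpl), 28 fell and none rose, 45 had a change below 0 and the median log2 change was -0.28, with a range of -0.84 to 0.13. Of 29 genes of the small subunit (Mrps), 12 fell, none rose and 17 did not pass, with a median of -0.25. For comparison, 14% of all tested genes fell and 14.2% rose. Of 25 Cox genes, for subunits and assembly of cytochrome oxidase, 4 fell (16%, near the share of all genes) and none rose. Falls of Cox genes numbered 1 without the deep libraries or without PBS_GFP replicate 1, and 2 without PBS_GFP replicate 2 or 3. The count of Mrpl genes that fell lay between 21 and 32 as single hearts were left out, and that of Mrps genes between 10 and 14, but only 5 Mrps genes fell without the deep libraries. Mrpl19 had 19.8, 25.4 and 37.0 CPM in C26_GFP hearts and 44.8 to 50.9 CPM in PBS_GFP hearts (-0.84 ± 0.12, adjusted p = 1.11e-05), and Mrpl34 had 44.9, 57.2 and 90.8 CPM in C26_GFP hearts and 98.1 to 104 CPM in PBS_GFP hearts (-0.78 ± 0.14, adjusted p = 0.000202). Both were separate between the groups, as was Mrps2, with 39.5 to 61.2 CPM in C26_GFP and 65.9 to 75.6 CPM in PBS_GFP hearts (-0.59 ± 0.09, adjusted p = 3.33e-05).

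Genes of the import machinery, which brings those proteins into the organelle, fell more often than they rose. Of 54 genes of import and of mitochondrial fusion and fission, 20 fell, 1 rose and 33 did not pass, and the median was -0.14. Without C26_GFP replicate 8 there were 2 rises. Tomm22, the central receptor of the outer membrane pore (NM_172609, chr15:79670868-79672862, plus strand), had 40.9, 43.1 and 50.8 CPM in C26_GFP hearts, against 60.1, 55.6, 65.4 and 68.0 CPM in PBS_GFP hearts, without overlap (-0.50 ± 0.07, adjusted p = 1.53e-05). Timm22, the inner membrane channel for carrier proteins, had 24.5, 30.5 and 41.5 CPM in C26_GFP hearts, against 53.6, 46.1, 54.8 and 52.3 CPM in PBS_GFP hearts (-0.74 ± 0.12, adjusted p = 4.29e-05). Opa1, which fuses inner membranes and shapes cristae (NM_001199177, chr16:29579334-29654602, plus strand), had 231, 256 and 281 CPM in C26_GFP hearts and 307 to 362 CPM in PBS_GFP hearts (-0.36 ± 0.07, adjusted p = 0.00036). Tomm5 and the import receptor Tomm70a changed by -0.65 ± 0.12 and -0.31 ± 0.05 (adjusted p = 0.000169 and 6.82e-05). The 1 member that rose was Tomm34, a cytosolic cochaperone of import (0.36 ± 0.10, adjusted p = 0.00548), and it did not pass without the deep libraries (0.38, adjusted p = 0.0662). Its call was also lost when counts were thinned to the smallest library (0.25, adjusted p = 0.107) and without the libraries high in atrial markers (0.31, adjusted p = 0.0634).

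Of 33 genes for mitochondrial tRNA synthetases and maintenance of mitochondrial DNA, 8 fell, none rose and 25 did not pass, with a median of -0.15. The counts were 5 falls and 1 rise without PBS_GFP replicate 1 or without the deep libraries, and 9 falls and 2 rises without C26_GFP replicate 6. Tfam, which packages and transcribes mitochondrial DNA, had 34.2, 48.0 and 54.9 CPM in C26_GFP hearts, against 66.9, 65.9, 65.1 and 66.6 CPM in PBS_GFP hearts, which were nearly identical to each other (-0.47 ± 0.08, adjusted p = 0.00017). The transcription factor Mterf2 fell by 0.51 ± 0.11 (adjusted p = 0.000724). Abcb10, a transporter of the inner mitochondrial membrane linked to haem synthesis, changed by -0.36 ± 0.07 (adjusted p = 0.000291), and Sirt3, a mitochondrial deacylase, fell by 0.43 ± 0.11 (adjusted p = 0.0038). The motif CGCATGCG, bound by nuclear respiratory factor 1 and its own reverse complement, was found in 7 of 65 matched promoters of the Mrpl and Mrps genes (10.8%), in 3 of 47 of the import group (6.38%), among them Opa1, and in 386 of all 9540 (4.05%). Only 2 of the 7 Mrpl and Mrps genes with the motif, Mrpl10 and Mrpl32, were called lower, and among all genes called lower the share was 3.8%, close to that of all promoters.

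**Figure D2:**
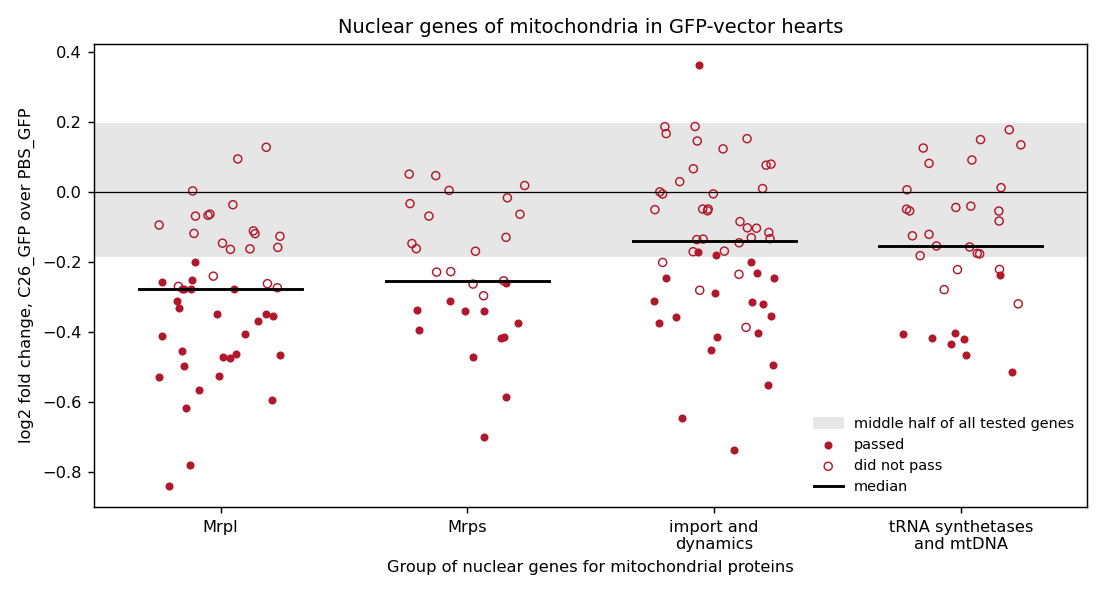
Log2 fold change, C26_GFP over PBS_GFP, of each tested gene in 4 groups of nuclear genes for mitochondrial proteins, with filled points for genes that passed an adjusted p under 0.05, a bar at the group median and a grey band over the middle 50% of all tested genes. The bars lie at -0.28, -0.25, -0.14 and -0.15, and only 1 filled point, Tomm34, lies above 0.

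Transverse tubules and caveolae are membrane folds that carry the action potential and signalling into the muscle cell. Of 28 of their genes tested, 10 fell and none rose, with a median of -0.13, and 5 fell without the deep libraries. Without PBS_GFP replicate 4, C26_GFP replicate 3 or C26_GFP replicate 6 there was 1 rise. Sdpr, a caveola coat protein, had 226, 291 and 332 CPM in C26_GFP hearts, against 420, 445, 454 and 412 CPM in PBS_GFP hearts, with no overlap (-0.58 ± 0.08, adjusted p = 1.07e-05). Jph2, which ties the tubule to the calcium store, changed by -0.53 ± 0.13, the membrane repair protein Dysf by -0.54 ± 0.13 and Pacsin2, which bends membranes, by -0.25 ± 0.05 (adjusted p = 0.00258, 0.00279 and 0.000688). Of 30 genes of the dystrophin complex and costamere, 7 fell and 3 rose, with a median of -0.09. The called share was 33.3%, against 28.2% of all genes. Among the falls, Ank1, Sntb1 and Sspn, an ankyrin, a syntrophin and sarcospan, changed by -0.51 ± 0.09, -0.95 ± 0.18 and -0.58 ± 0.11 (adjusted p = 0.000101, 0.000217 and 0.000246). Of 48 genes of microtubules and motors, 12 fell and 4 rose, with a median of -0.16 and again a called share of 33.3%. Without the deep libraries 10 fell and 2 rose. The tubulin Tuba1a had 35.4 to 57.9 CPM in C26_GFP and 62.5 to 81.1 CPM in PBS_GFP hearts (-0.74 ± 0.13, adjusted p = 0.000147). The plus-end binding protein Mapre2 and the kinesin Kif5b changed by -0.33 ± 0.07 and -0.26 ± 0.06 (adjusted p = 0.000725 and 0.00164). The nuclear importins Kpna2 and Kpna3 fell as well, with changes of -0.95 ± 0.15 and -0.39 ± 0.07 (adjusted p = 3.06e-05 and 8.31e-05).

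Several genes of nucleotide breakdown rose. Of 45 genes of purine and pyrimidine metabolism, 12 rose and 5 fell, with a median of 0.09, and 7 rose and none fell without the deep libraries. Without PBS_GFP replicate 1 there were 10 rises and 2 falls, without replicate 2 of that group 8 and 3, and without its replicate 3 there were 9 and 3. Gda, which turns guanine into xanthine (NM_010266, chr19:21391307-21472661, minus strand), had 86.3, 108 and 142 CPM in C26_GFP hearts, against 45.0, 44.1, 54.5 and 45.4 CPM in PBS_GFP hearts, without overlap (1.29 ± 0.14, adjusted p = 1.9e-07). Xdh, which turns xanthine into uric acid, had 136, 212 and 376 CPM in C26_GFP hearts, against 107, 65.5, 77.5 and 95.4 CPM in PBS_GFP hearts (1.40 ± 0.22, adjusted p = 2.85e-05). Entpd1, the surface enzyme CD39 that removes extracellular ATP, rose by 0.96 ± 0.15 (adjusted p = 2.41e-05), and Pfas, an enzyme of purine synthesis, by 0.73 ± 0.12 (adjusted p = 8.37e-05). In the 8 rises and 2 falls of 24 genes of NAD metabolism, Nampt, which recycles nicotinamide, had 311 to 407 CPM in C26_GFP and 214 to 279 CPM in PBS_GFP hearts (0.55 ± 0.11, adjusted p = 0.000341). That group counted 5 rises without the deep libraries, without PBS_GFP replicate 2 or without PBS_GFP replicate 3, and 1 fall without the deep libraries, without PBS_GFP replicate 1 or without PBS_GFP replicate 4.

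Among sphingolipid genes, the exporter and receptors of the signalling lipid sphingosine-1-phosphate rose. Of 33 tested, 11 rose and 2 fell, with a median of 0.12, and 6 rose without the deep libraries. Spns2, the exporter of sphingosine-1-phosphate (NM_153060, chr11:72451638-72489920, minus strand), had 41.0, 61.0 and 70.8 CPM in C26_GFP hearts, against 27.4, 32.9, 25.5 and 24.1 CPM in PBS_GFP hearts (1.08 ± 0.12, adjusted p = 5.06e-07). The receptors for that lipid rose too, S1pr1 by 0.79 ± 0.18 and S1pr3 by 0.66 ± 0.13 (adjusted p = 0.00167 and 0.000605), as did Sphk2, a kinase that makes it (0.50 ± 0.11, adjusted p = 0.000756). Degs1, which makes ceramide, fell by 0.39 ± 0.08 (adjusted p = 0.000404). Among other lipid genes, Pnpla2, the main lipase of lipid droplets, had 555, 1195 and 1415 CPM in C26_GFP hearts, against 552, 558, 568 and 546 CPM in PBS_GFP hearts. The PBS_GFP hearts were alike for Pnpla2 while 1 C26_GFP heart stayed at their level (1.02 ± 0.19, adjusted p = 0.000215). Of 28 genes of cholesterol synthesis and SREBP2 targets, 6 fell and 3 rose, a called share of 32.1% against 28.2% of all genes. Without the deep libraries 4 fell and 1 rose. Among them were the synthesis enzyme Hsd17b7 (-1.11 ± 0.17, adjusted p = 3.2e-05) and Nr1h3, a receptor for oxysterols (0.78 ± 0.13, adjusted p = 8.62e-05).

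Of 43 glutathione genes and targets of the redox regulator NRF2, 12 rose and 5 fell, with a median of 0.09, and 9 rose and 3 fell without the deep libraries or without PBS_GFP replicate 1. The glutathione transferases Gsta3 and Gstm1 rose by 1.03 ± 0.16 and 0.59 ± 0.11 and the peptidase Ggt5 by 0.85 ± 0.14 (adjusted p = 4.22e-05, 0.000174 and 6.49e-05), whereas Sod2, the superoxide dismutase of mitochondria, fell by 0.55 ± 0.11 (adjusted p = 0.000581). The first enzyme of haem synthesis and the enzyme of haem breakdown moved in opposite directions. Alas1, the rate-limiting enzyme of haem synthesis, had 57.0, 69.3 and 94.1 CPM in C26_GFP hearts, against 153, 126, 140 and 137 CPM in PBS_GFP hearts (-0.97 ± 0.16, adjusted p = 7.64e-05). Hmox1, which breaks haem down, had 15.5, 29.8 and 62.6 CPM in C26_GFP hearts, against 13.4, 11.7, 12.1 and 11.3 CPM in PBS_GFP hearts (1.48 ± 0.34, adjusted p = 0.00182). Of 22 haem genes 4 fell and 1 rose, a called share of 22.7%, below that of all genes. Without the deep libraries 2 fell, and rises numbered 3 without PBS_GFP replicate 2 and 2 without PBS_GFP replicate 4 or C26_GFP replicate 6.

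Target genes of stress regulators did not move in 1 direction. Of 29 targets of hypoxia-inducible factors, 8 rose and 7 fell, and 5 rose and 5 fell without the deep libraries. Changes in the group ranged from -0.94 to 1.91, with a median of -0.07. Among the falls were Higd1a, Egln3 and Pgk1, a mitochondrial protein, an oxygen sensor and a glycolytic enzyme, with -0.79 ± 0.14, -0.94 ± 0.17 and -0.42 ± 0.08 (adjusted p = 9.09e-05, 0.00015 and 0.000246). Of 31 targets of p53, 9 fell and 4 rose, with changes from -0.75 to 1.91 and a median of -0.03. Tnfrsf1a, described above, was 1 of the rises. Without the deep libraries 4 fell and 2 rose, without PBS_GFP replicate 4 there were 5 falls, and without the libraries high in atrial markers 5 fell and 3 rose. Ccng1, a cyclin that p53 induces, had 877, 1102 and 1488 CPM in C26_GFP hearts, against 2013, 1876, 1779 and 1915 CPM in PBS_GFP hearts, without overlap (-0.75 ± 0.12, adjusted p = 3.12e-05), and the receptor Eda2r fell by 0.66 ± 0.15 (adjusted p = 0.00134). The phosphatase Dusp3 changed by -0.56 ± 0.09 (adjusted p = 5.71e-05) and the DNA methyltransferase Dnmt3a by -0.36 ± 0.08 (adjusted p = 0.00167), while Ezh1, a histone methyltransferase, rose by 0.58 ± 0.12 (adjusted p = 0.000672). Of 53 splicing regulators and cold-inducible RNA-binding proteins, 8 rose, 4 fell and 41 did not pass, with a median of 0.03 and a called share of 22.6%, below that of all genes. The counts were 4 and 2 without the deep libraries, 4 and 3 without PBS_GFP replicate 1, and 4 and 4 without PBS_GFP replicate 4. Among the rises were the kinase Clk1 (0.70 ± 0.11, adjusted p = 5.45e-05) and the cold-inducible Cirbp (0.66 ± 0.13, adjusted p = 0.000456).

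**Figure D3:**
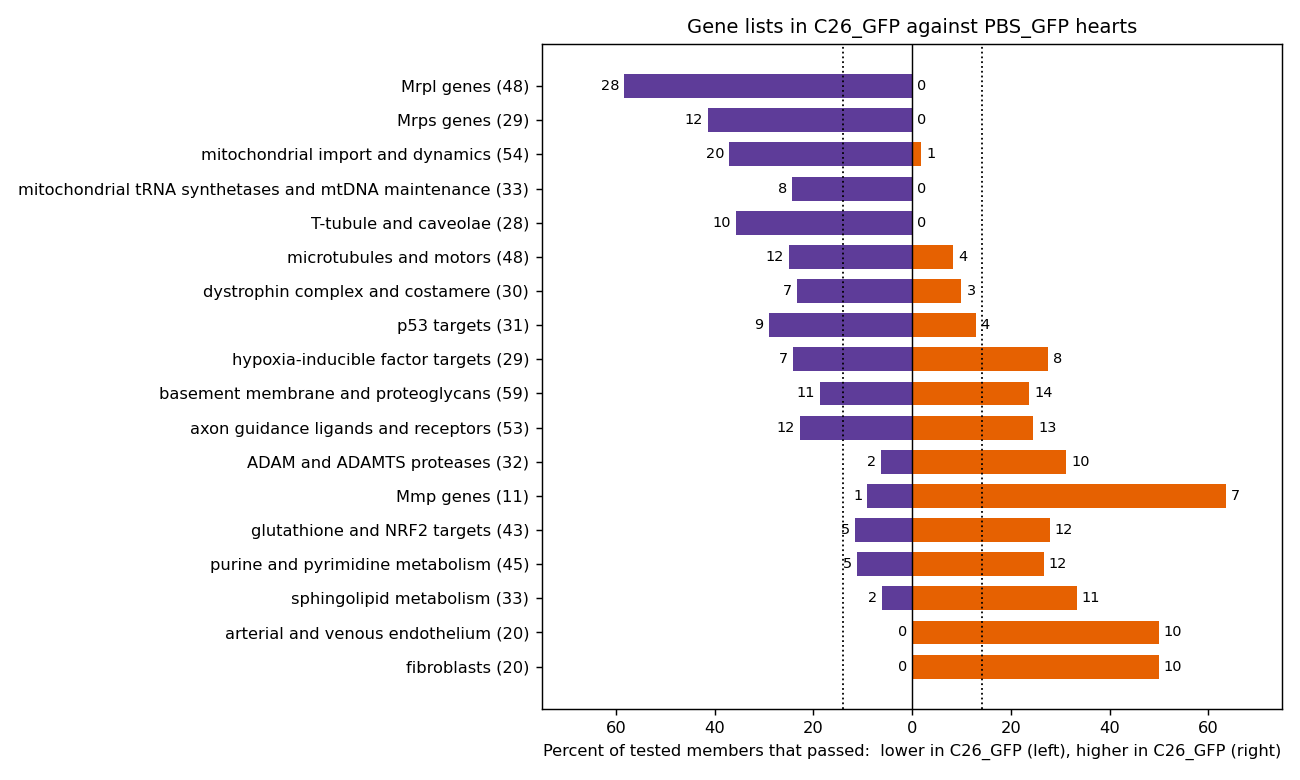
Percent of the tested members of 18 gene groups that passed an adjusted p under 0.05, lower in C26_GFP hearts to the left and higher to the right, with the number of genes at each bar, the number tested in brackets and dotted lines at the share of all tested genes, 14% lower and 14.2% higher. The Mrpl group reaches 28 of 48 on the left, and the fibroblast and arterial and venous groups reach 10 of 20 each on the right with none on the left.

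Genes of the extracellular matrix split between groups. Of 59 genes of basement membranes and proteoglycans, 14 rose and 11 fell, with a median of 0.01. Without the deep libraries 7 rose and 6 fell, and without PBS_GFP replicate 1, 9 rose and 9 fell. Emilin1, a glycoprotein of elastic fibres, had 138, 162 and 194 CPM in C26_GFP hearts, against 81.0, 94.9, 96.4 and 96.5 CPM in PBS_GFP hearts (0.83 ± 0.09, adjusted p = 5.02e-07). Lama5, a laminin of vessel basement membranes, had 99.2, 132 and 169 CPM in C26_GFP hearts, against 68.5, 57.3, 45.0 and 56.7 CPM in PBS_GFP hearts (1.24 ± 0.17, adjusted p = 5.43e-06). Neither gene overlapped between the groups. Sparc, a matrix protein that binds collagen, had 318 to 431 CPM in C26_GFP and 542 to 607 CPM in PBS_GFP hearts (-0.63 ± 0.10, adjusted p = 4.09e-05), and the collagen chain Col4a4 had 5.53 to 8.20 CPM in C26_GFP and 12.9 to 16.9 CPM in PBS_GFP hearts (-1.18 ± 0.12, adjusted p = 1.53e-07). The small proteoglycan Aspn changed by -1.05 ± 0.15 and Papln by -1.47 ± 0.20 (adjusted p = 1.18e-05 and 6.52e-06).

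Matrix proteases rose more often than they fell. Of 11 tested genes of the Mmp family, 7 rose and 1 fell, with a median of 0.88. Mmp3, a stromelysin, rose by 3.05 ± 0.46, Mmp14, a membrane-bound collagenase, by 1.02 ± 0.19 and the gelatinase Mmp2 by 0.88 ± 0.15 (adjusted p = 2.02e-05, 0.00019 and 0.000118). Mmp19 had 14.6, 19.8 and 28.7 CPM in C26_GFP hearts and 4.59 to 8.42 CPM in PBS_GFP hearts (1.62 ± 0.23, adjusted p = 9.41e-06). The 1 fall was that of Mmp15 (-0.85 ± 0.19, adjusted p = 0.00149). Of 32 ADAM and ADAMTS genes 10 rose and 2 fell, with a median of 0.17, and 5 rose without the deep libraries. Adamts15, a protease of proteoglycans, had 34.5, 59.2 and 144 CPM in C26_GFP hearts, against 20.5, 23.8, 22.7 and 22.1 CPM in PBS_GFP hearts (1.80 ± 0.34, adjusted p = 0.000239). Serpine2, an inhibitor of thrombin and plasminogen activators, rose by 1.11 ± 0.14 (adjusted p = 3.14e-06), as did F13a1, which crosslinks fibrin (0.81 ± 0.15, adjusted p = 0.00022). They belong to a coagulation group of 30 genes with 9 rises and 3 falls, which had no fall without the deep libraries, without PBS_GFP replicate 1 or without PBS_GFP replicate 3.

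In the TGF-beta and BMP family, the receptors Tgfbr2 and Bmpr1a moved in opposite directions. Tgfbr2, the type II receptor of TGF-beta, had 212, 247 and 379 CPM in C26_GFP hearts, against 127, 139, 123 and 137 CPM in PBS_GFP hearts (1.08 ± 0.14, adjusted p = 4.45e-06). Bmpr1a, a type I receptor of bone morphogenetic proteins, had 95.4 to 146 CPM in C26_GFP and 178 to 194 CPM in PBS_GFP hearts (-0.59 ± 0.08, adjusted p = 3.14e-06), and Ltbp4, which stores latent TGF-beta in the matrix, had 177 to 339 CPM in C26_GFP and 442 to 479 CPM in PBS_GFP hearts (-0.95 ± 0.14, adjusted p = 2.09e-05). Of 43 genes of these pathways 6 rose and 8 fell, a called share of 32.6% against 28.2% of all genes. That became 4 rises and 2 falls without the deep libraries. Falls numbered 5 without PBS_GFP replicate 2, and 3 without PBS_GFP replicate 4. In the WNT group of 46, 6 rose and 6 fell, a called share of 26.1%, below that of all genes. Changes in it ranged from -1.28 to 1.67. Among the falls, the antagonist Dact3 changed by -1.02 ± 0.20 (adjusted p = 0.000367) and the receptor Fzd2 by -0.98 ± 0.22 (adjusted p = 0.00147). The call of Fzd2 was lost without the deep libraries (-0.88, adjusted p = 0.0737). That group counted 2 rises and 2 falls without the deep libraries and 3 falls without PBS_GFP replicate 2. Tead3, a transcription factor partner of YAP, rose by 0.59 ± 0.10 (adjusted p = 5.52e-05).

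Of 34 genes of vasoactive peptide systems 9 rose and 3 fell. Rises numbered 5 without the deep libraries, and 1 gene fell without PBS_GFP replicate 3. Corin, which processes natriuretic peptides, had 331 to 565 CPM in C26_GFP and 244 to 280 CPM in PBS_GFP hearts (0.76 ± 0.12, adjusted p = 3.71e-05), Agt, the precursor of angiotensin, rose by 1.43 ± 0.28 (adjusted p = 0.000404), and Ece1, which activates endothelin, by 0.51 ± 0.08 (adjusted p = 4.85e-05). Slc3a2, the heavy chain of several amino acid exchangers, had 79.9 to 145 CPM in C26_GFP and 40.5 to 47.7 CPM in PBS_GFP hearts (1.21 ± 0.15, adjusted p = 1.27e-06). The purine base transporter Slc43a3 rose by 0.81 ± 0.12, the organic anion carrier Slco2b1 by 0.81 ± 0.12 and the lactate exporter Slc16a3 by 0.93 ± 0.17 (adjusted p = 2.54e-05, 1.51e-05 and 0.000184). These rises stood among both directions, since of all 231 Slc genes tested 28 rose and 43 fell. That is a called share of 30.7%, against 28.2% of all genes. The counts were 12 and 23 without the deep libraries, 16 and 36 without PBS_GFP replicate 1, and 18 and 32 without PBS_GFP replicate 3. Of 56 genes of the secretory pathway 13 rose and 3 fell, with a median of 0.05. The called share was 28.6%, near the 28.2% of all genes. Without the deep libraries 7 rose and 1 fell. Without PBS_GFP replicate 4 there were 10 rises and 1 fall. Their rises were small, with 0.41 ± 0.08 for the vesicle coat GTPase Sar1a, 0.36 ± 0.07 for the Golgi matrix protein Golga2 and 0.25 ± 0.05 for the translocon protein Sec62 (adjusted p = 0.000396, 0.00033 and 0.000695). Gaa, the lysosomal enzyme that degrades glycogen, rose by 0.51 ± 0.08 (adjusted p = 4.95e-05), and Cd63, a membrane protein of late endosomes, had 45.4, 54.3 and 63.7 CPM in C26_GFP hearts, against 30.4, 30.3, 28.4 and 29.9 CPM in PBS_GFP hearts (0.85 ± 0.11, adjusted p = 2.41e-06).

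Of 40 enzymes of cyclic nucleotides 8 rose and 8 fell. The counts were 4 and 1 without the deep libraries, 3 and 5 without PBS_GFP replicate 1, 8 and 4 without PBS_GFP replicate 2, and 5 and 6 without PBS_GFP replicate 4. The adenylyl cyclases Adcy6 and Adcy7 changed by 0.55 ± 0.10 and -0.61 ± 0.13 (adjusted p = 0.000153 and 0.000736). Of 35 eicosanoid enzymes and receptors 9 rose and 5 fell, and 4 rose and 4 fell without the deep libraries. Cyp1b1, an oxidase of steroids and fatty acids, had 31.8, 54.2 and 79.9 CPM in C26_GFP hearts and 10.0 to 18.4 CPM in PBS_GFP hearts (1.99 ± 0.28, adjusted p = 1.1e-05), while the thromboxane receptor Tbxa2r fell by 1.31 ± 0.26 (adjusted p = 0.00039). Rarres2, which encodes the adipokine chemerin, rose by 1.09 ± 0.22 (adjusted p = 0.000634). Of 30 ABC transporters 11 fell and 5 rose, and 7 fell and 1 rose without the deep libraries, among them the lipid transporter Abca8b (-0.83 ± 0.16, adjusted p = 0.000234). Mest, an imprinted gene expressed from the paternal allele, had 3.82, 5.25 and 7.10 CPM in C26_GFP hearts, against 14.1, 13, 15.5 and 18.3 CPM in PBS_GFP hearts, without overlap (-1.47 ± 0.18, adjusted p = 2.21e-06).

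Markers of cell types gave counts that differed between types. Of 20 fibroblast markers 10 rose and none fell, with a median of 0.39, and their summed level was 3320 to 4401 CPM in C26_GFP and 2936 to 3554 CPM in PBS_GFP hearts, which overlapped. Without C26_GFP replicate 1 there was 1 fall. Pi16, of a fibroblast state in the adventitia, had 152 to 236 CPM in C26_GFP and 76.2 to 108 CPM in PBS_GFP hearts (1.02 ± 0.16, adjusted p = 3.38e-05), Gfpt2, the entry enzyme of hexosamine synthesis, had 24.8 to 58.8 CPM in C26_GFP and 8.32 to 16.3 CPM in PBS_GFP hearts (1.68 ± 0.23, adjusted p = 5.6e-06), and the growth factor receptor Pdgfra rose by 0.48 ± 0.10 (adjusted p = 0.000467). Of 20 arterial and venous markers 10 rose and none fell, with a median of 0.31 and sums of 1238 to 1747 CPM in C26_GFP and 1052 to 1446 CPM in PBS_GFP hearts. That count was 5 without PBS_GFP replicate 1 or without the deep libraries and 6 without PBS_GFP replicate 3. The arterial transcription factor Sox17 rose by 0.86 ± 0.17 (adjusted p = 0.000448). Ackr1, a chemokine scavenger of venules, had 1.09, 1.56 and 2.36 CPM in C26_GFP hearts, against 0.139, 0.189, 0.287 and 0 CPM in PBS_GFP hearts. Its change of 3.18 ± 0.66 (adjusted p = 0.000702) rests on few counts, and the call was lost without the deep libraries (3.34, adjusted p = 0.0754). Of 20 capillary markers 5 rose and 2 fell, between 2 and 9 rising as single hearts were left out. Without the deep libraries 2 rose and 1 fell. Without C26_GFP replicate 6 there were 9 rises, without PBS_GFP replicate 2 there were 2, and without PBS_GFP replicate 3 or C26_GFP replicate 2 there were 3. Falls numbered 1 without any single one of PBS_GFP replicates 2, 3 and 4 and of C26_GFP replicates 1, 3, 5 and 7. Car4, a carbonic anhydrase of capillaries, rose by 1.28 ± 0.29 (adjusted p = 0.00162), and Lyve1, a marker of lymphatic vessels and of resident macrophages, by 0.80 ± 0.18 (adjusted p = 0.00119).

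Markers of dendritic and mast cells summed to 67.1 to 91.9 CPM in C26_GFP and 139 to 152 CPM in PBS_GFP hearts, without overlap, and 3 of 10 fell and 1 rose. The other 6 did not pass. Kit was 1 of the falls, and another was Fscn1, an actin-bundling protein, with 27.8 to 56.2 CPM in C26_GFP and 95.5 to 104 CPM in PBS_GFP hearts (-1.16 ± 0.17, adjusted p = 1.18e-05). Fscn1 had a median of 45.9 CPM in C26_GFP hearts, where the sum had a median of 84.2 CPM. In PBS_GFP hearts these medians were 100 and 148 CPM, so the sum rests largely on Fscn1. The part of dendritic and mast cells in the falls of Kit and Fscn1 was not tested. Blk, a kinase of B cells, fell by 1.57 ± 0.25 (adjusted p = 3.55e-05), with 3.65 to 21.0 CPM in C26_GFP and 26.7 to 38.1 CPM in PBS_GFP hearts, while 1 of the other B cell markers rose and the 5 summed to 178 to 282 CPM in C26_GFP and 165 to 186 CPM in PBS_GFP hearts. Dbh, the enzyme that makes noradrenaline in sympathetic nerves, had 1.64, 3.29 and 9.02 CPM in C26_GFP hearts, against 16.9, 20.5, 23.0 and 13.7 CPM in PBS_GFP hearts (-2.26 ± 0.35, adjusted p = 2.6e-05). Of 26 neuronal markers only 9 could be tested, and 3 of them fell and 1 rose. Those 9 summed to 205 to 330 CPM in C26_GFP and 212 to 282 CPM in PBS_GFP hearts, which overlapped. Th, another neuronal marker, had at most 1 count in any of the 14 hearts. The part of nerves in the fall of Dbh was not tested. A single neuronal marker fell without the deep libraries, without any single one of PBS_GFP replicates 1, 2 and 3 and without any single one of C26_GFP replicates 1, 4, 7 and 10, and none rose without the deep libraries or without PBS_GFP replicate 1. Hcn4, the pacemaker channel, changed by -1.06 ± 0.24 (adjusted p = 0.00136), and 3 of 13 conduction markers fell and none rose. The called share of conduction markers was 23.1%, against 28.2% of all genes, and their median was -0.08. A single conduction marker fell without the deep libraries, without any single one of PBS_GFP replicates 1, 2 and 3 and without C26_GFP replicate 4 or 10, and 1 rose without any single one of C26_GFP replicates 1, 2, 5 and 6. None of 17 atrial and none of 12 platelet markers passed, while without PBS_GFP replicate 2 there were 2 atrial rises and 1 platelet rise, and without the deep libraries 1 platelet rise. The liver genes Alb and Apob changed by -2.52 ± 0.90 and -2.56 ± 0.95 (adjusted p = 0.035 and 0.0427), but PBS_GFP replicate 2 alone had 27.5 and 22.5 CPM of them, and without it the changes were 1.48 and 4.08 (adjusted p = 0.523 and 0.209).

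The 10 C26_GFP hearts differed among themselves. In every gene 1 of the 10 must be the nearest to the PBS_GFP hearts and 1 the farthest, so each share below is part of a fixed whole. Across the 1510 genes that passed and did not overlap, C26_GFP replicate 6 was the C26_GFP heart nearest to the PBS_GFP hearts in 650 genes (43.0%), replicate 9 in 230 (15.2%) and replicate 3 in 145 (9.60%). Replicate 7 was farthest from them in 435 genes (28.8%) and replicate 10 in 401 (26.6%). Over all 3642 called genes the median log2 distance from the PBS_GFP mean was lowest in replicate 6, at 0.215, and highest in replicate 10, at 0.562. Without C26_GFP replicate 6 the test called 4140 genes. Of 10753 genes with at least 5 CPM, 7066 (65.7%) had a larger SD of log2 CPM among C26_GFP than among PBS_GFP hearts, with a median ratio of 1.25, and of 3332 called genes of that level 2490 (74.7%) had one. The gene with the highest ratio was Susd6, at 26.3, with 313 to 533 CPM in C26_GFP and 286 to 291 CPM in PBS_GFP hearts (0.44 ± 0.10, adjusted p = 0.00169), and Pnpla2, Socs3 and Tfam had ratios of 17.7, 13.8 and 11.1. These ratios rest on 4 PBS_GFP hearts, and those of single genes were picked as high ones from many. An SD from 4 hearts tends to come out lower than one from 10 hearts of equal spread. The shares and the median ratio are therefore not to be read against an even split, and a difference in spread was not tested.

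**Figure D4:**
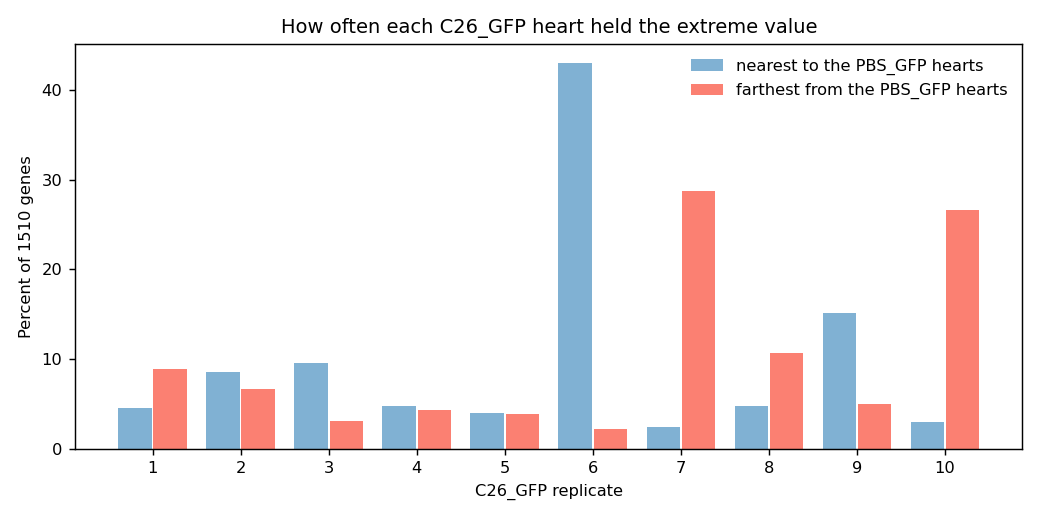
Percent of the 1510 genes that passed and did not overlap in which each C26_GFP heart was the nearest to (blue) or the farthest from (red) the PBS_GFP hearts. Replicate 6 was nearest in 43.0% of genes, and replicates 7 and 10 were farthest in 28.8% and 26.6%.

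In hearts of mice given the REV-ERBα vector, the same contrast called 935 genes (7.23%), C26_REVERBa against PBS_REVERBa. The 2 contrasts share no hearts, although they share 1 estimate of spread. Of the called genes 744 passed in both and in the same direction, 20.4% of the calls with the GFP vector and 79.6% of those with the REV-ERBα vector, and none passed in opposite directions. Of the 3642 genes called with the GFP vector 3394 (93.2%) had the same sign with the REV-ERBα vector. Of the 455 that changed more than 2-fold, 439 had the same sign and 427 had a smaller estimate with the REV-ERBα vector, and choosing them by size with the GFP vector favours smaller estimates in the other contrast. Of the 146 genes called and changed more than 2-fold with the REV-ERBα vector, 143 had the same sign and 57 a smaller estimate with the GFP vector. The log2 changes of Myh7 were 1.15 with the GFP vector and 0.16 with the REV-ERBα vector (adjusted p = 0.651 with the REV-ERBα vector), those of Lama5 1.24 and 0.36, those of Mrpl19 -0.84 and -0.25 and those of Ly6a 0.94 and 1.18. The median changes of the Mrpl and Mrps genes with the REV-ERBα vector were -0.10 and -0.10, and none of them passed there. The test of the difference between the 2 tumour effects called 0 genes (0%), with a lowest edgeR adjusted p of 0.278 and 1357 genes at an unadjusted p under 0.05, while DESeq2 called 15.

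**Figure D5:**
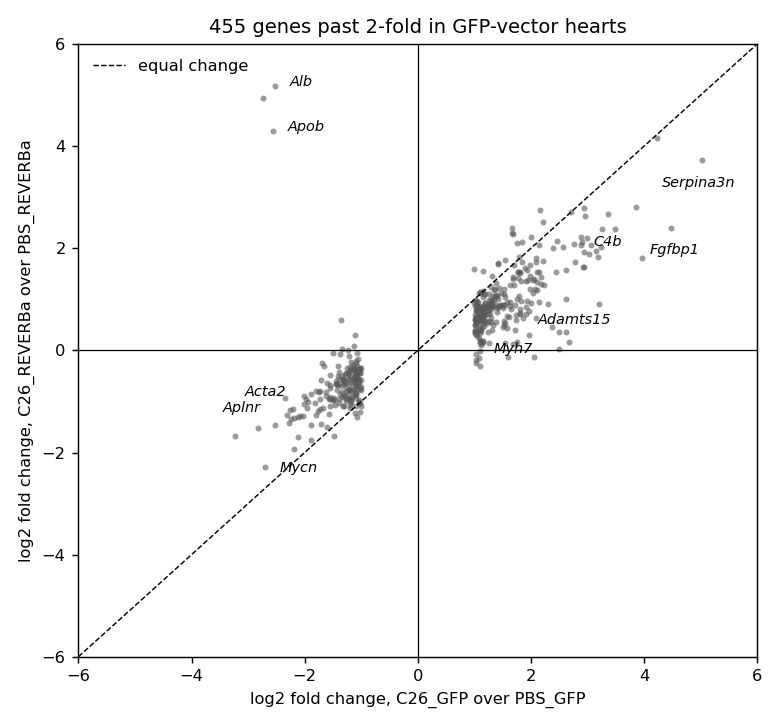
Log2 fold change with the GFP vector (C26_GFP over PBS_GFP, horizontal axis) against that with the REV-ERBα vector (C26_REVERBa over PBS_REVERBa, vertical axis) for the 455 genes that changed more than 2-fold with the GFP vector, with a dashed line of equal change. Of these genes 439 have the same sign on both axes and 427 lie nearer to 0 on the vertical axis, a count that the choice of genes by size on the horizontal axis favours, and Alb and Apob are among the points of opposite sign.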

How the data were processed

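Total RNA of whole hearts was sequenced as 50 bp paired-end reads from stranded libraries without selection of polyadenylated RNA, per the labels' protocols. The deposited table holds raw counts of reads for each RefSeq gene, 1 column per heart. Build mm10, DESeq2 1.24.0 and STAR 2.4.2a are listed, without roles, per the submitters' processing notes, while no source used here names the counting tool or its strand setting. Levels of near-identical, overlapping and antisense genes are therefore uncertain. Some single genes are not reported here. One per-sample column matched no sample's labels (1 in all) and was not used.

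In R 4.3.3 with edgeR 4.0.16, 12928 of 20411 genes passed filterByExpr with a minimum count of 10 and a minimum total of 15. TMM factors scaled the libraries. One quasi-likelihood model without covariates covered all 29 libraries, with a separate mean per group (4 in all). A gene was called when its adjusted p, by the method of Benjamini and Hochberg over all tested genes, was under 0.05, and every adjusted p given is of this kind. The standard error is the size of the log2 fold change divided by the square root of F. Levels are CPM with TMM scaling, and at 3467940 counts, the smallest of the 14 totals, a gene at 1 CPM has few reads. Deposited gene starts were raised by 1.

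The comparison, the gene groups and the genes named were chosen with earlier results of these data known. Named were the 20 largest changes and 10 smallest p-values in each direction among called genes with at least 5 CPM and no overlap, the 10 largest gains and losses in CPM, up to 4 members of each group with the smallest p, and genes with extreme ratios of SD, and the text gives a part of them. Members of the Mrpl, Mrps, Cox, Slc, Mmp and Hspa families, and a few markers beyond these were named after their values were seen. Of 2602 entries in 81 groups, 2495 were found in the table (2467 under their symbol, 28 under another) and 2140 could be tested. No 2 hearts of a group agreed within sampling noise (chi-square over its degrees of freedom at least 2.99 in 51 pairs). On simulated data with 12928 genes, the test of C26_GFP against PBS_GFP recovered 62% of 100 genes changed 1.5-fold and 90% of 100 changed 2-fold, with 10 false calls. No other gene was changed there, and a gene had the same spread in all groups. These rates need not hold for the real hearts, where 28.2% of genes were called. Promoters are from the RefSeq table of GRCm38.p6, which matched 9540 tested genes within 500 bases.

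Alternatives were DESeq2 1.42.0, scaling by RLE or the upper quartile, limma 3.58.1 voom with sample weights, other filters and thresholds, a robust fit, a fit of the 14 hearts alone, a replicate block, an atrial covariate, thinning to the smallest total, leaving out deep or atrial-rich libraries and leaving out each heart in turn. Leaving out the libraries with a mean hepatocyte marker level above 1 log2 CPM was added after seeing the data.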

Additional observations from a re-analysis of the deposited data

Results flagged for a closer look

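In 16 of 336 groups of values examined, 1 heart stood far from the others of its group, measured by its gap to the nearest other heart against the group's whole range. Chance alone gives about 1 in 20. C26_GFP replicate 7 was low for Nes at 27.1 CPM (nearest other heart 36.5), for Mycn at 1.09 CPM (1.95) and for Tfam at 34.2 CPM (44.9), and high for Adcy6 at 1172 CPM (870). C26_GFP replicate 6, the heart most often nearest to the PBS_GFP hearts, was high for Tomm22 at 50.8 CPM (45.1) and low for Car4 at 15.1 CPM (29.8), Golga2 at 145 CPM (173) and Cirbp at 60.4 CPM (87.3). C26_GFP replicate 2 was low for Serping1 at 173 CPM (206) and for Tbxa2r at 1.85 CPM (3.27).

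Among the PBS_GFP hearts, replicate 2 was high for the liver gene Apob at 22.5 CPM (0.0693), for Acta2 at 180 CPM (114) and for Rarres2 at 26.3 CPM (15.4), and low for Higd1a at 96.7 CPM (111). PBS_GFP replicate 3 was high for Gda at 54.5 CPM (45.4), and PBS_GFP replicate 1 was low for Emilin1 at 81.0 CPM (94.9).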

How the results depend on the processing

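With only 4 PBS_GFP hearts, counts of calls changed with the hearts that were kept. The 3642 calls stayed within 1.5 times under 28 of 30 alternatives, with 4648 calls by limma voom as the highest. They became 2173 at an adjusted p under 0.01 and 1975 without the libraries above 10000000 counts. Leaving out those libraries also leaves fewer PBS_GFP hearts, so depth and group size cannot be told apart there. Thinning all libraries to the smallest total gave 2931 calls. Leaving out single hearts gave 2795 to 4140 calls, of which 2672 to 3590 were among the 3642. The 935 calls with the REV-ERBα vector became 476 to 1200 as single hearts were left out and 450 with the replicate block. The 0 genes for the difference of the tumour effects became 15 with DESeq2 and stayed at 0 as single hearts were left out. The replicate block gave 2825 calls for the GFP vector, but the labels' numbers did not pair the hearts: deviations of same-numbered hearts correlated at -0.05, -0.22, 0.06 and 0.09, and none of the 4 correlated best with its own number. The 168 named genes were mostly chosen for a large change or small p-value in these data, which favours keeping a call. Of them, 161 kept their call under every alternative run. Of 5040 recomputed values 38 were no longer past the threshold and 7 changed sign. Those 7 were of Alb (1.14 without libraries with high atrial markers, 0.20 without those with high hepatocyte markers, 1.48 without PBS_GFP replicate 2) and of Apob (3.47, 2.05 and 4.08 in the same order, and 3.77 without the libraries above 10000000 counts). As single hearts were left out, Alb ranged from -3.10 to 1.48 and Apob from -3.33 to 4.08. Other scalings moved the median of all genes by less than 0.1 on the log2 scale (0.00298 with RLE, -0.0121 with upper quartile, 0.00304 with DESeq2). The causes were not tested.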
